A study of Mus musculus with 12 samples.

Results

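The genes described here are the Fanconi anaemia and homologous recombination genes other than Fancc itself. They form a fixed list of 36 symbols: 33 had at least 1 probe set that the array's annotation gave to that symbol alone, out of 18193 genes measured this way, and Xrcc2, Fan1 and Rbbp8 had none named here. The 33 genes held 81 probe sets, a probe set being a group of short probes on the array against 1 transcript region; 25 genes had several and 8 had 1. The RNA came from KSL cells, marrow cells sorted as c-Kit+, Sca-1+ and lineage-negative, a fraction rich in stem and early progenitor cells, taken from wild-type and Fancc-/- mice aged 2 to 4 months. All cells were cultured for 24 h in medium with 10% fetal bovine serum, IL-6 at 20 ng/ml, IL-11 at 10 ng/ml, Flt3L at 50 ng/ml and SCF at 10 ng/ml, and TNF alpha was added at 10 ng/ml to some cultures of each genotype when they were plated. This gave 4 groups of 3 arrays: wild type untreated, wild type with TNF, mutant untreated and mutant with TNF. From 5 to 15 ng of RNA per array was amplified before hybridization. The labels do not say how many animals were pooled or whether replicates were separate animals, so p-values measure only the spread between these arrays, which may be technical.

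The Fanconi anaemia pathway repairs crosslinks that join the strands of DNA. When a replication fork meets a crosslink, FANCM and a core complex that includes the FANCC protein are recruited, the core complex attaches ubiquitin to the FANCI and FANCD2 pair, nucleases cut the crosslink loose, and homologous recombination rebuilds the broken chromatid with BRCA1, BRCA2 and their partners. Loss of the pathway leads to marrow failure, and haematopoietic cells that lack Fancc are known to be unusually sensitive to TNF. The comparisons asked whether the RNA of these repair genes differed with TNF exposure, with the genotype, or with TNF differently in the mutant.

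Promoter windows are shown for the genes whose probe sets passed the test of TNF, Atr and Rmi1, and for the genes with a match to the E2F motif, bound by the main transcription factors of S phase. Windows of 250 bases before the start, from RefSeq on build GRCm38.p6, were found for 30 of the 36 symbols, taking the most upstream start where a gene had several. The motifs were chosen after the expression values were seen and were searched on both strands: E2F as TTTCCCGC, TTTCGCGC, TTTGCCGC or TTTGGCGC, the CCAAT box as CCAAT, and the NF-kB consensus, NF-kB being the transcription factor that TNF activates. Capitals mark the matches, each sequence reads 5′ to 3′ on the gene's strand and ends at the base before the start, and matches of different motifs did not overlap in these windows.
Atr, chr9:95857347-95857596, plus strand, NF-kB match in capitals: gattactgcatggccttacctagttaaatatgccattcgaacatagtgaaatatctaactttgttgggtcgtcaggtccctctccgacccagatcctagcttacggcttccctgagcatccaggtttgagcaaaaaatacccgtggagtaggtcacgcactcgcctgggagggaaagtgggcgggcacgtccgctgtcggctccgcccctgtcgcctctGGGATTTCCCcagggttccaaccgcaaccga
Rmi1, chr13:58401998-58402247, plus strand, CCAAT matches in capitals: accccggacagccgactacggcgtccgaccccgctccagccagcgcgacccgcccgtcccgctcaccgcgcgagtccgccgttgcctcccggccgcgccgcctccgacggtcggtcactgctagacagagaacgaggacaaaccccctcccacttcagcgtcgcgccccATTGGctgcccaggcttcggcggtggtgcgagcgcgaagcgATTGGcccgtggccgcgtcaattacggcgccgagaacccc
Fancg, chr4:43010302-43010551, minus strand, E2F match in capitals: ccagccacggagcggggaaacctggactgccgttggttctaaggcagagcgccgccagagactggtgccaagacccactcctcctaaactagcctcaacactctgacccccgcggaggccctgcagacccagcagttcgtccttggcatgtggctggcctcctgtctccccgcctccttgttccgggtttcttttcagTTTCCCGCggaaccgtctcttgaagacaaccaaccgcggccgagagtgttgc
Brca2, chr5:150522371-150522620, plus strand, E2F match in capitals: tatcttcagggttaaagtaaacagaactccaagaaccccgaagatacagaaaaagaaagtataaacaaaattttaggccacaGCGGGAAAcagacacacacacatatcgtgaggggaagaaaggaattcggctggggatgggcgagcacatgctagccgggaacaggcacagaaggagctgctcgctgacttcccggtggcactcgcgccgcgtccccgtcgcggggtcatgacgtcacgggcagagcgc
Bard1, chr1:71102973-71103222, minus strand, E2F match in capitals: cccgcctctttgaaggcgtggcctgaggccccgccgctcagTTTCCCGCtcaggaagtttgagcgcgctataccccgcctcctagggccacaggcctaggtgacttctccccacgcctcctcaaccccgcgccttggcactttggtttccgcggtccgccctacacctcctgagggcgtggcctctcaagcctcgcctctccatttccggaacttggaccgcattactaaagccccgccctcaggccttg
The E2F motif was in 3 of the 30 windows (10%), against 520 of 27018 windows of the same length (1.92%). CCAAT was in 15 of 30 (50%), against 34.5% of all windows. The NF-kB consensus was in 1 of 30 (3.33%), the Atr window at 21 bases before the start, where it read as a match on both strands, against 3.74% of all windows. A match is a description of these letters and was not tested for binding.

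Before the repair genes, the arrays were checked against their labels. Values were log2 RMA levels, with quartiles that differed little between the 12 arrays (medians from 5.96 to 6.05), and arrays correlated with each other at r between 0.982 and 0.996 across probe sets. Sorted-cell markers Kit, Cd34, Flt3 and Gata2 were bright, while the Sca-1 gene Ly6a had no probe set named here. Fancc, the targeted gene, read no lower in the cells labelled mutant: without TNF its brightest probe set read 8.28, 8.22 and 8.49 in wild type against 9.16, 8.73 and 9.15 in the mutant, and averaged over TNF the difference was 0.62 (SE 0.10, limma adjusted p = 0.137). The labels do not say which part of the gene was disrupted, so these probe sets may lie outside it and do not check the genotype label. Mutant below therefore means the arrays labelled mutant. Genes that mark the sex of the cells varied within groups and with TNF: Xist, expressed in female cells, read 12.20 to 13.08 on all 6 TNF arrays, but 5.47 and 5.06 on the first and the second untreated wild-type arrays and 5.12 on the first untreated mutant array. On the other 3 untreated arrays it read 12.04 to 12.73. The Y-linked gene Eif2s3y read 10.46 to 11.88 on 10 arrays, and 4.16 and 3.79 on the second untreated mutant and the third wild-type TNF array, so most arrays were high for both genes, and the sex of the cells and TNF are partly mixed in this design.

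Most of the repair genes were well above the middle of the array. Each gene is represented by its brightest probe set, and 31 of 33 stood above the median gene value of 7.44 on all 12 arrays; the exceptions were Bard1, the partner of BRCA1, above it on 7 arrays, and Rad51c, a homologous recombination gene, on 6. Mean levels ran from 7.44 for Bard1 to 12.64 for Usp1, the protease that removes ubiquitin from FANCD2, but levels of different probe sets are not comparable as amounts of RNA. The spread between replicate arrays had a median SD of 0.166 on the log2 scale, near the 0.153 over all genes. It was smallest for Fancg of the core complex (0.064) and the nuclease partner Ercc1 (0.068) and largest for the nuclease gene Ercc4 (0.322).

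TNF changed none of the 33 repair genes beyond the threshold in either genotype. With limma's moderated test across all genes and Benjamini-Hochberg adjustment at 0.05, 0 of 33 passed in wild type, where 5.02% of all genes passed, and 0 of 33 in the mutant, where 4.31% passed. At an unadjusted p under 0.05 there were 2 in wild type, Rad51c higher and the helicase gene Blm lower, against 17.8% of all genes, and 0 in the mutant, against 17.1%. The median difference of the 33 genes was 0.00 in wild type, and -0.005 in the mutant, where that of all genes was -0.03 in both. The arrays bound the size of any change: the 95% interval lay within 0.5 log2 units of 0 for 21 of 33 genes in wild type and 24 in the mutant, and within 1 unit, a doubling, for 33 and 32.

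**Figure D1:**
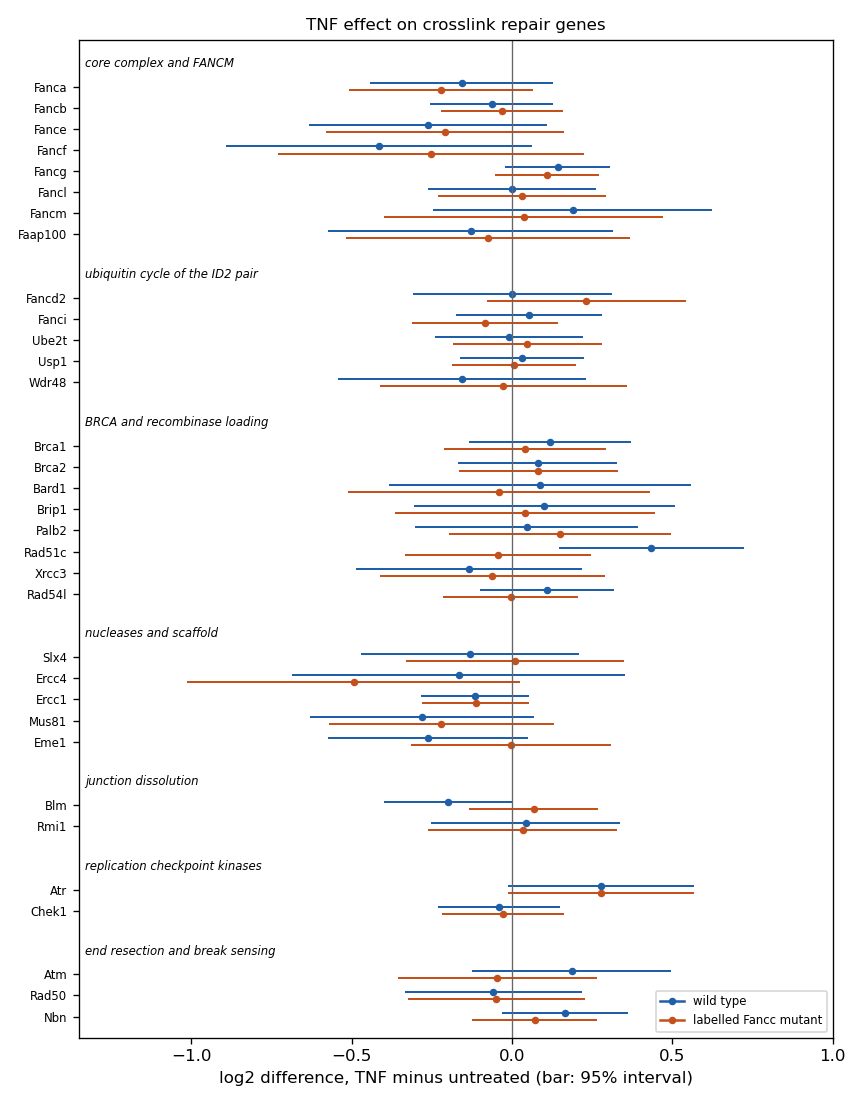
TNF minus untreated for the 33 repair genes, in log2 units, in wild type and in the mutant; points are limma estimates from 3 arrays a group and bars are 95% intervals. Estimates lie from -0.41 to 0.43 in wild type and from -0.49 to 0.28 in the mutant, and no gene passed the adjusted threshold.

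Averaging the TNF difference over both genotypes uses all 12 arrays and narrows the intervals to a median of 0.20 either side. Again 0 of 33 passed in limma, where 12.1% of all genes did, and 3 had an unadjusted p under 0.05, against 26% of all genes: Atr and Fancg higher and the nuclease gene Mus81 lower. The intervals of 31 of 33 genes lay within 0.5 of 0.

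In the core complex with FANCM, 8 genes were measured and none passed. Fancf, an adaptor of the complex, had the lowest estimate in wild type: it read 10.01, 8.98 and 9.56 untreated and 9.25, 8.97 and 9.09 with TNF, a difference of -0.41 (SE 0.21, limma adjusted p = 0.354). The groups overlapped, and the first untreated array was the highest. Averaged over genotype the difference was -0.33 (-0.67 to 0.00), and without the second untreated wild-type array it was -0.47 and passed. In the mutant Fancf read 9.41, 9.36 and 9.01 untreated and 9.05, 8.88 and 9.09 with TNF. Fancg, which scaffolds the complex, was the most tightly measured: it read 11.70, 11.83 and 11.82 untreated and 11.93, 11.89 and 11.96 with TNF in wild type, without overlap. In the mutant it read 11.77, 11.79 and 11.82 untreated and 11.94, 11.97 and 11.79 with TNF, where 1 TNF array fell among the untreated ones. Its averaged difference was 0.13 (SE 0.05, 95% interval 0.01 to 0.24, limma adjusted p = 0.149). Fanca, a scaffold of the complex, read 10.32, 10.47 and 10.34 in untreated mutant cells and 10.12, 10.20 and 10.15 with TNF, without overlap, whereas its wild-type groups overlapped. Its averaged difference was -0.19 (95% interval -0.39 to 0.01). Fance, which bridges the complex to FANCD2, had -0.23 (-0.49 to 0.03). By their brightest probe sets, the ligase gene Fancl, Fancb, the fork-remodelling gene Fancm and Faap100 lay between -0.10 and 0.11. The dimmer Fancl probe set had means of 6.34 untreated and 6.75 with TNF in wild type, and 6.36 and 6.81 in the mutant. It did not pass.

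In the ubiquitin cycle of the FANCI and FANCD2 pair, the 5 genes had averaged TNF differences from -0.09 to 0.12. Fancd2, the substrate of the core complex, read 8.94, 8.85 and 9.10 in untreated mutant cells and 9.24, 9.23 and 9.12 with TNF, which did not overlap. In wild type it read from 8.81 to 9.19 untreated and from 8.84 to 9.33 with TNF, which did. The brightest Usp1 probe set stayed between 12.46 and 12.75 on all 12 arrays, and its averaged difference had a 95% interval from -0.11 to 0.15. The dimmer Usp1 probe sets varied more. In wild type their means were 10.28 and 9.74 untreated and 10.20 and 9.62 with TNF. In the mutant they were 10.52 and 10.03 untreated and 10.46 and 9.88 with TNF. Fanci, the partner of FANCD2, and Ube2t, the conjugating enzyme that supplies the ubiquitin, were as close to 0 as the brightest Usp1 probe set, at -0.02 and 0.02. Wdr48, the cofactor of USP1, was at -0.09 (-0.36 to 0.18).

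Among the 8 genes for BRCA proteins and their partners in recombination, 7 had an estimate above 0 for TNF in wild type and 4 in the mutant; none passed. Over all genes, 57.3% of estimates were below 0 in wild type and 57.9% in the mutant. Rad51c had the largest: its brightest probe set read 7.36, 7.12 and 7.27 in untreated wild-type cells and 7.93, 7.41 and 7.71 with TNF. All 3 TNF arrays were above all 3 untreated ones, and the difference was 0.43 (SE 0.13, 95% interval 0.15 to 0.72, limma adjusted p = 0.0919). In the mutant it read 7.39, 7.59 and 7.53 untreated and 7.57, 7.31 and 7.49 with TNF, overlapping, with a difference of -0.04 (-0.33 to 0.24). Without the second wild-type TNF array, the lowest of its group, the wild-type difference was 0.57 and passed (adjusted p = 0.0298). The dimmer Rad51c probe set read 6.15, 7.36 and 6.92 untreated and 7.25, 7.08 and 7.04 with TNF in wild type, so its groups overlapped. Brca1, Brca2, Palb2, which links them, the helicase gene Brip1 and Bard1 had averaged differences from 0.02 to 0.10. Rad54l, a DNA motor of homologous recombination, was at 0.05 (-0.09 to 0.20), and Xrcc3, another recombination gene, at -0.10 (-0.34 to 0.15). The dimmest Rad54l probe set had means of 6.96 untreated and 7.50 with TNF in wild type, and 7.11 and 7.42 in the mutant. Its groups overlapped in both genotypes and it did not pass. The remaining Rad54l probe sets had wild-type means of 9.59 and 9.62 untreated, against 9.52 and 9.57 with TNF.

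The 5 nuclease and scaffold genes all had an estimate below 0 for TNF in wild type, from -0.28 to -0.12, and 4 of 5 in the mutant; none passed. Ercc4, which encodes the XPF nuclease, had the lowest of any member in the mutant: it read 9.26, 9.53 and 9.12 untreated and 8.96, 8.81 and 8.66 with TNF. The groups did not overlap, but the difference of -0.49 had a 95% interval from -1.01 to 0.02 (limma adjusted p = 0.318). In wild type Ercc4 read 9.63, 8.74 and 9.14 untreated and 9.44, 8.68 and 8.91 with TNF, a wide spread within both groups. Its second-brightest probe set read 7.87, 7.81 and 7.96 in untreated mutant cells and 7.45, 7.52 and 7.44 with TNF, without overlap. In wild type that probe set had means of 7.95 and 7.93. The remaining Ercc4 probe sets had mutant means of 6.79 untreated and 6.79 with TNF, and 6.08 and 5.93. No Ercc4 probe set passed in the mutant. Mus81, a nuclease that cuts stalled forks and junctions, read 9.36, 9.49 and 9.26 in untreated mutant cells and 9.15 on all 3 arrays with TNF. In wild type it read 9.56, 9.21 and 9.44 untreated and 8.86, 8.97 and 9.53 with TNF, where the third TNF array was among the untreated ones. Its averaged difference was -0.25 (SE 0.11, limma adjusted p = 0.184), and without the third wild-type TNF array it was -0.35 and passed. Ercc1, the partner of XPF, read 11.68, 11.51 and 11.50 in untreated wild-type cells and 11.46, 11.40 and 11.49 with TNF, a small step without overlap. Slx4, the scaffold of these nucleases, was at -0.06 and Eme1, the partner of MUS81, at -0.13, on average.

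Blm, the helicase that undoes joined recombination intermediates, read 10.04, 10.21 and 10.32 in untreated wild-type cells and 10.05, 10.07 and 9.85 with TNF. The first untreated array fell among the TNF arrays, and the difference was -0.20 (SE 0.09, limma adjusted p = 0.275). In the mutant Blm read 10.10, 10.03 and 10.00 untreated and 10.12, 10.16 and 10.06 with TNF, a difference of 0.07 (-0.13 to 0.26). Of the break-sensing genes, Nbn read 10.39, 10.57 and 10.69 in untreated wild-type cells and 10.72 on all 3 TNF arrays. Rad50, its partner in the complex that binds broken ends, was at -0.05 on average, and Atm, the kinase they activate, at 0.07. In the count of genes whose arrays did not overlap, the repair genes had 4 of 33 for TNF in wild type (Fancg, Rad51c and Nbn higher, Ercc1 lower), against 20.6% of all genes. In the mutant they had 5 of 33 (Fancd2 and Atr higher, Fanca, Ercc4 and Mus81 lower), against 26.2% of all genes.

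Atr, the kinase that signals stalled replication forks, had the highest averaged TNF estimate of any member, though Fancf and Ercc4 lay further from 0 on the other side, and its 3 probe sets are shown singly. The brightest read 10.66, 10.32 and 10.32 in untreated wild-type cells and 10.99, 10.60 and 10.55 with TNF. In the mutant it read 10.35, 10.16 and 10.16 untreated and 10.47, 10.53 and 10.50 with TNF, without overlap. The difference was 0.28 in each genotype and 0.28 averaged (SE 0.09, 95% interval 0.08 to 0.48, limma adjusted p = 0.0779). Without the first untreated wild-type array it was 0.34 and passed (adjusted p = 0.0298). It also passed with a replicate block (0.28), with array weights (0.29), with a filter on dim genes (0.28), and with its probe sets averaged, where the difference was 0.62. Chek1, the kinase that ATR activates, was at -0.03 (-0.17 to 0.10).

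Tested singly over all 45037 probe sets, 1 of the 81 member probe sets rose with TNF in wild type, 0 passed in the mutant and 2 rose on average, against 2.58%, 2.09% and 7.41% of all probe sets. The unadjusted counts in limma were 7, 6 and 12 of 81 (8.64%, 7.41% and 14.8%), against 15.2%, 13.2% and 21.5% of all probe sets. The second-brightest Atr probe set read 7.91, 8.22 and 8.22 in untreated wild-type cells and 9.03, 8.84 and 9.25 with TNF. The groups were well apart, and this probe set rose by 0.92 (SE 0.18, 95% interval 0.53 to 1.32, 1.90-fold, limma adjusted p = 0.0244). In the mutant it read 8.47, 8.24 and 8.59 untreated and 8.98, 9.06 and 8.42 with TNF, where the third TNF array lay among the untreated ones; the difference was 0.39 (-0.01 to 0.79, limma adjusted p = 0.397). The difference between the genotypes' responses was -0.54 (-1.10 to 0.03, limma adjusted p = 1), so a smaller response in the mutant was not shown. Averaged, this probe set rose by 0.66 (SE 0.13, limma adjusted p = 0.0108). The dimmest Atr probe set read 5.13, 4.41 and 4.23 untreated and 6.04, 4.90 and 5.90 with TNF in wild type, and 5.06, 4.11 and 4.07 against 5.58, 5.25 and 4.92 in the mutant. Its averaged difference was 0.93 (0.36 to 1.50, limma adjusted p = 0.0551).

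The wild-type Atr call is sensitive to the arrays used. It was lost without any 1 untreated wild-type array (adjusted p from 0.0546 to 0.0697), without the first or the third wild-type TNF array (0.06 and 0.102), and with Xist and Eif2s3y as covariates, where the difference was 0.88 (0.171); its value stayed between 0.82 and 1.03. The averaged Atr call was lost under those covariates alone, where the difference was 0.63 (adjusted p = 0.111).

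Rmi1 encodes a partner of BLM in dissolving junctions. Its probe set ranked the third by brightness read 8.96, 8.87 and 8.89 in untreated wild-type cells and 9.09, 9.19 and 9.24 with TNF, and 8.95, 8.87 and 9.03 against 9.08, 9.45 and 9.34 in the mutant. All TNF arrays were above all untreated arrays of either genotype, and on average this probe set rose by 0.30 (SE 0.07, 95% interval 0.15 to 0.46, limma adjusted p = 0.0270). The brightest Rmi1 probe set gave 0.04 (-0.17 to 0.25), and the others lay from -0.06 to 0.08. The Rmi1 call was lost without any 1 of 8 arrays, at adjusted p from 0.0535 to 0.0718, and with the sex-linked covariates, where the difference was 0.31 (0.154). Those were the second and the third arrays of the untreated wild-type group, the first and the second of the untreated mutant group, and the second and the third of both TNF groups.

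**Figure D2:**
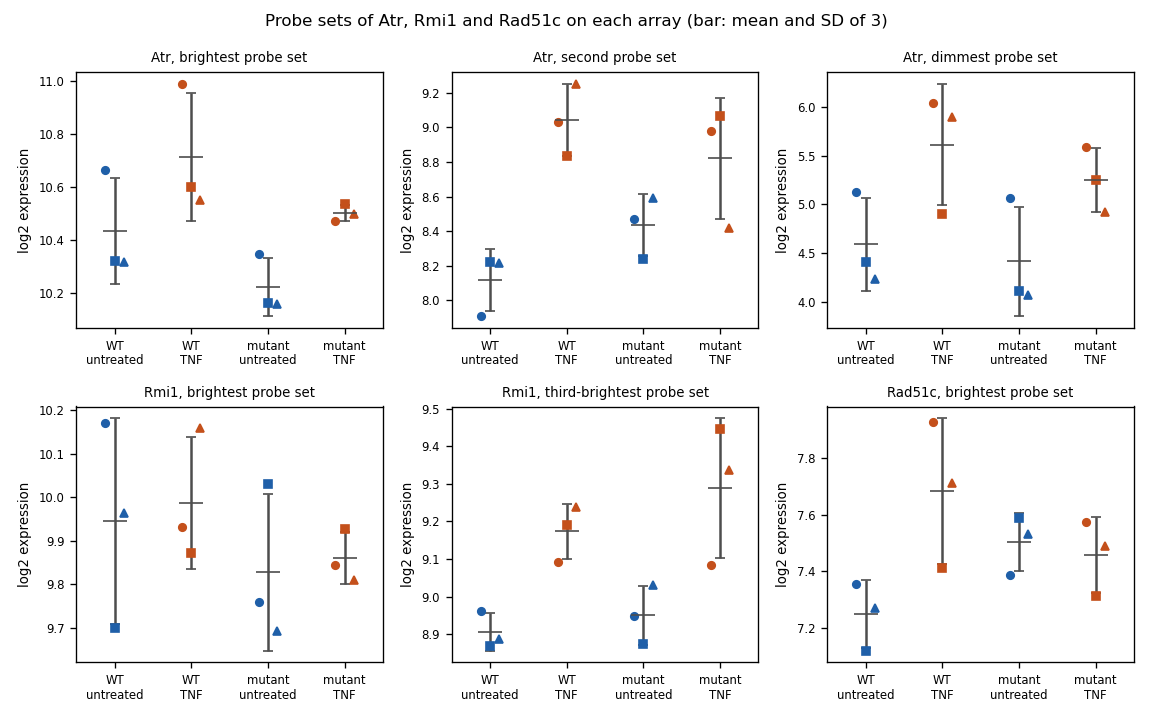
Log2 RMA level on each array for the 3 Atr probe sets, the brightest and the third brightest Rmi1 probe sets and the brightest Rad51c probe set; circle, square and triangle are replicates 1, 2 and 3, blue is untreated, orange is with TNF, and bars are the mean and SD of 3 arrays. The second-brightest Atr probe set reads 8.84 to 9.25 with TNF against 7.91 to 8.22 untreated in wild type.

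The array on which the probe sets of 1 gene disagreed most varied between genes. Each probe set was taken relative to its mean in the group of the array. Among the 25 genes with several, the widest gap between probe sets was on the first untreated wild-type array for 7 genes. It was on the second wild-type TNF array for 5. On the first untreated wild-type array the brightest Brca1 probe set read 11.18, the highest of its group. The next read 8.73 there, against 9.93 and 9.68 on the other untreated wild-type arrays. The third read 6.95 against 8.05 and 7.91. Fancm did likewise: its brightest probe set read 9.13 there against 8.36 and 8.45, while another read 6.36 against 7.77 and 6.87. Without this array, 0 of 33 members passed in limma for TNF in wild type, where 848 of 18193 genes did. Averaged over genotype, 1 passed, Atr (0.34), where 2225 of 18193 genes did. Values without it are not given here for Brca1 or Fancm.

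**Figure D3:**
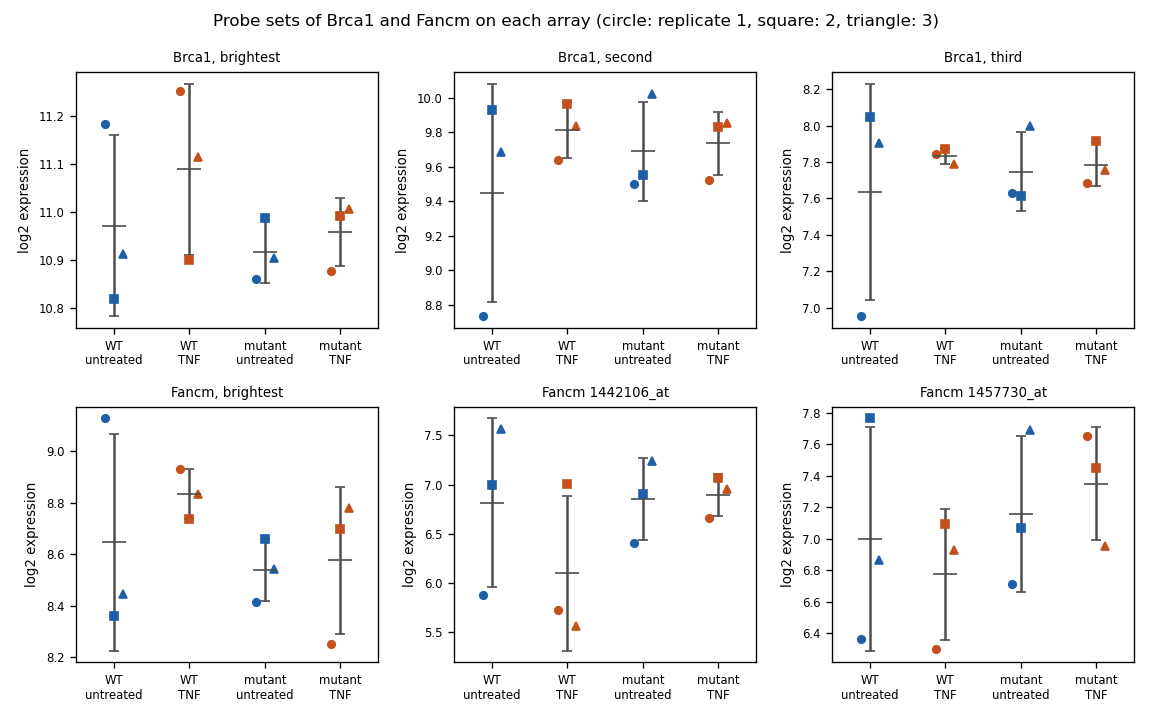
Log2 RMA level on each array for 3 probe sets each of Brca1 and Fancm; circle, square and triangle are replicates 1, 2 and 3, blue is untreated, orange is with TNF, and bars are the mean and SD of 3 arrays. On the first untreated wild-type array the brightest probe sets are high (11.18 and 9.13) and the next Brca1 probe set is low (8.73).

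No repair gene passed the test of mutant against wild type. Without TNF, 0 of 33 passed in limma, against 0.0055% of all genes, and 0 had an unadjusted p under 0.05, against 4.12%. With TNF, again 0 of 33 passed, against 0.0055%, and 0 had an unadjusted p under 0.05, against 5.6%. Averaged over TNF, 0 passed, against 0.022%, and 1 did unadjusted, against 7.39%. That gene was Atr, whose brightest probe set had a mutant minus wild-type difference of -0.21 (SE 0.09, 95% interval -0.41 to -0.01, limma adjusted p = 0.663). The Atr probe sets did not share this direction throughout. The second-brightest had untreated means of 8.12 in wild type and 8.43 in the mutant, without overlap, and 9.04 and 8.82 with TNF. The dimmest had means of 4.59 and 4.42 untreated, and 5.61 and 5.25 with TNF. Over the 33 genes, the averaged differences of the brightest probe sets spanned -0.23 to 0.09. The intervals of 31 of 33 genes lay within 0.5 of 0. Counting arrays that did not overlap gave 1 of 33 without TNF, Rad51c higher in the mutant, against 8.1% of all genes, and 2 of 33 with TNF, Ercc1 higher and Atr lower, against 11%. In bulk RNA of this kind, fewer cells of a type and less RNA per cell cannot be told apart.

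The estimates leaned to the mutant side being lower. Of the 33 genes, 27 (81.8%) had an averaged difference below 0, with a median of -0.06, against 53.9% of all genes, with a median of -0.01. Lists of related genes leaned the same way: 74.2% of S phase genes and 68.1% of the other crosslink repair genes described below, Fancc included, were under 0. Their medians were -0.04 and -0.06, while mitosis genes had 40% under 0. The 8 core complex and FANCM genes were all below 0, from -0.23 for Faap100 to -0.01 for Fancg. This count moved with single arrays: it was 21 of 33 without the first wild-type TNF array, 23 without both wild-type arrays numbered 1 and 29 without the second mutant TNF array. Those wild-type arrays had the highest medians of the 33 genes, 0.12 untreated and 0.11 with TNF relative to each gene's mean, while the other 10 arrays lay between -0.09 and 0.05. When probe sets were averaged per gene in place of taking the brightest, 23 of 33 were below 0, with a median of -0.02. No single gene behind the count passed the test.

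**Figure D4:**
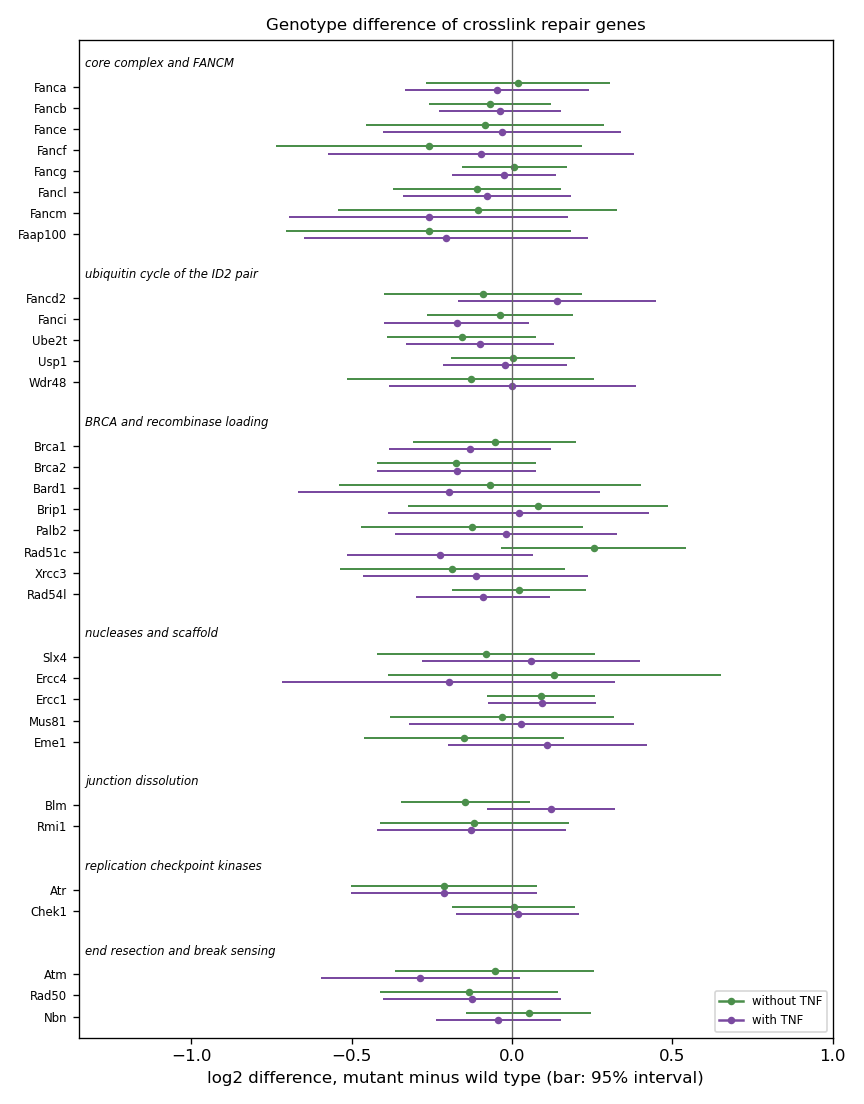
Mutant minus wild type for the 33 repair genes, in log2 units, untreated and with TNF; points are limma estimates from 3 arrays a group and bars are 95% intervals. Estimates lie from -0.26 to 0.25 untreated and from -0.29 to 0.14 with TNF, and no gene passed the adjusted threshold.

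The lowest genotype estimate under TNF was that of Atm. It read 11.48, 10.81 and 11.22 in wild type and 10.83, 10.99 and 10.83 in the mutant, overlapping because of the second wild-type array, with a difference of -0.29 (SE 0.14, limma adjusted p = 0.898). Brca2, which acts in strand exchange during recombination, read 11.01, 10.84 and 10.82 in untreated wild type and 10.90, 10.59 and 10.66 in the mutant, and with TNF 11.14, 10.95 and 10.81 against 10.74, 10.90 and 10.75. Its averaged difference was -0.17 (-0.35 to 0.00, limma adjusted p = 0.677). Rad51c without TNF had a difference of 0.25 (-0.03 to 0.54, limma adjusted p = 0.992).

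Among single probe sets, 0 of 81 passed without TNF, with TNF or averaged over TNF, against 0.00666%, 0.00666% and 0.0266% of all probe sets; in limma 3, 1 and 6 had an unadjusted p under 0.05 (3.7%, 1.23% and 7.41%), against 3.88%, 4.96% and 6.3% of all probe sets. The smallest unadjusted p without TNF among them belonged to a dimmer Fancd2 probe set, chosen for mention after its values were seen. It read 6.80, 6.89 and 6.65 in wild type and 5.90, 5.83 and 6.16 in the mutant, clearly apart, for a difference of -0.81 (-1.20 to -0.42, limma adjusted p = 1). With TNF the groups overlapped, at 7.01, 6.24 and 6.65 against 6.41, 6.72 and 6.64. The second-brightest Fancd2 probe set was also lower in the untreated mutant. It read 8.22, 8.01 and 8.19 in wild type and 7.66, 7.81 and 7.94 in the mutant, without overlap. With TNF its groups overlapped, at 8.13, 8.18 and 7.92 against 8.05, 8.02 and 7.92. The dimmest had untreated means of 4.44 in wild type and 4.43 in the mutant. The brightest Fancd2 probe set gave -0.09 (-0.40 to 0.22) without TNF.

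No repair gene passed limma's interaction test, which asks whether the TNF response differed between the genotypes. The counts were 0 of 33, against 0% of all genes, and 0 of 81 probe sets, against 0%; unadjusted there were 1 of 33, against 2.9% of all genes, and 3 of 81 (3.7%), against 2.86% of all probe sets. The 1 was Rad51c, with a mutant minus wild-type difference in response of -0.48 (SE 0.18, 95% interval -0.88 to -0.07, limma adjusted p = 1). Blm was next, at 0.27 (-0.01 to 0.55, limma adjusted p = 1). The intervals here had a median width of 0.41 either side, and only 16 of 33 lay within 0.5 of 0. A difference in response of that size was therefore not excluded for the rest.

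For TNF, other genes of the same repair processes gave a like picture. Of 48 further crosslink repair and recombination genes, Fancc among them, chosen with earlier results of these data known, 47 were measured. For TNF, 0 passed in wild type or in the mutant, against 5.02% and 4.31% of all genes. At an unadjusted p under 0.05 in limma there were 3 and 3, against 17.8% and 17.1% of all genes. Averaged over genotype 1 passed, a rise, against 12.1% of all genes. That gene was Rad54b, a relative of Rad54l. It read 9.18, 9.49 and 9.39 in untreated wild type and 9.79, 10.23 and 9.81 with TNF, and 9.47, 9.27 and 9.16 against 9.88, 10.09 and 9.62 in the mutant. The TNF arrays were above the untreated ones throughout, and Rad54b rose by 0.58 (SE 0.11, 95% interval 0.33 to 0.82, limma adjusted p = 0.00597). Polq, the polymerase of an alternative end-joining route, had -0.44 in wild type (limma adjusted p = 0.0527) and 0.08 in the mutant; the difference between these had a limma adjusted p of 1. Between genotypes, 0 of the 47 passed without TNF, with TNF or averaged, against 0.0055%, 0.0055% and 0.022% of all genes. Unadjusted counts in limma were 3, 2 and 7 of 47, against 4.12%, 5.6% and 7.39% of all genes. Arrays did not overlap for 7 of 47 without TNF and 11 of 47 with TNF, against 8.1% and 11% of all genes. Fancc is counted in these.

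Many repair genes are transcribed mainly in dividing cells, so genes of S phase and mitosis were set beside them. On average 1 of 31 S phase genes changed with TNF, against 12.1% of all genes: Cdc6, a licensing factor, fell by 0.24 on the log2 scale (limma adjusted p = 0.0408). Of 25 mitosis genes 1 changed: Nusap1, a spindle protein, rose by 0.39 (limma adjusted p = 0.000665). At an unadjusted p under 0.05 in limma there were 4 of 31 S phase and 9 of 25 mitosis genes, against 26% of all genes. The list medians were 0.02 for the repair genes, 0.01 for S phase and 0.07 for mitosis, against -0.03 for all genes. Markers of maturing granulocytes moved far more: 8 of 11 fell in wild type, 5 of 11 in the mutant and 11 of 11 on average. Their mean level was 10.81 to 11.25 in untreated wild type and 7.86 to 8.86 with TNF, and 11.28 to 11.61 in untreated mutant cells and 8.67 to 9.83 with TNF. Over the same arrays the mean level of the repair genes was 9.79 to 9.96, 9.81 to 9.98, 9.78 to 9.85 and 9.75 to 9.84. The part of the change in granulocyte markers in any repair gene's value was not tested.

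**Figure D5:**
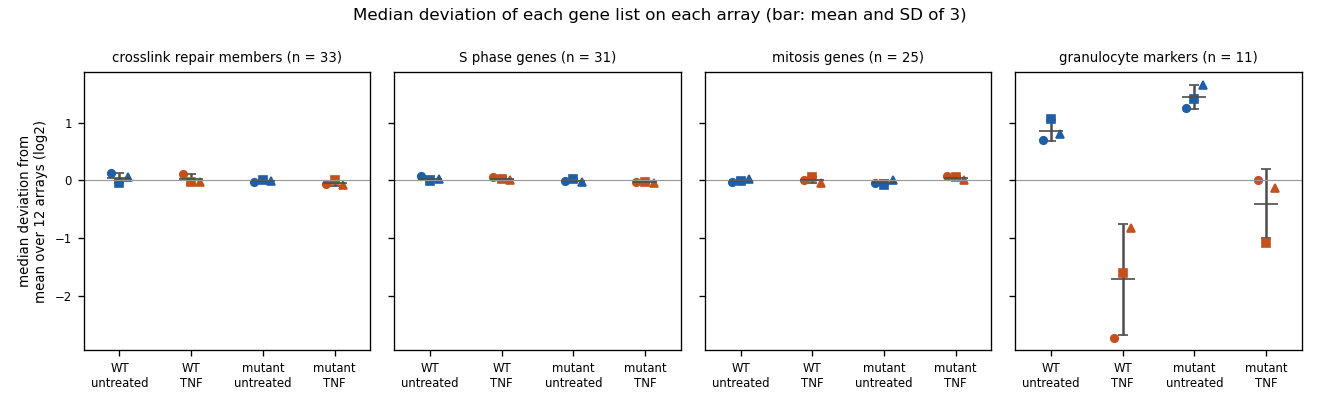
Median over each gene list of the log2 level relative to each gene's mean, by array, for the repair genes, S phase genes, mitosis genes and granulocyte markers; circle, square and triangle are replicates 1, 2 and 3, blue is untreated and orange is with TNF. The repair genes stay between -0.09 and 0.12, with the first array of each wild-type group highest, while granulocyte markers separate the TNF arrays.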

How the data were processed

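RNA from 12 cultures was hybridized to Affymetrix arrays. The deposited log2 values are normalised by RMA, which corrects background, quantile-normalises and summarises probes, per the submitters' processing notes; no version is named there, and scanner files were not used here. Quantile normalisation gives every array the same distribution of probe signals, so changes are relative to all genes. Of 45037 non-control probe sets, 34945 had 1 gene symbol; each of 18193 genes was represented by its brightest. limma 3.58.1 in R 4.3.3 (lmFit and eBayes) fitted 7 contrasts over the 4 groups of 3 arrays without a replicate block, with Benjamini-Hochberg adjustment over all genes and a threshold of 0.05, and again over all probe sets. The procedure was run on simulated arrays with planted changes and independent noise, which checks only that estimates recover the planted sizes on average. Replicate numbers were not taken to pair the arrays. Deviations of same-numbered arrays correlated at -0.159 to 0.278 (median 0.046), with 7 of 18 over 0.1. Those of different-numbered arrays had a median of -0.025, with 6 of 36 over 0.1. Deviations sum to 0 within a group, which ties these medians together, so they do not settle whether the numbers pair the arrays. A replicate block was fitted as an alternative. The members and lists were chosen with earlier results of these data known. By rule, the 2 members with the smallest p in each contrast were named singly, and others were given by role. Array values are also given for members that this rule did not select, among them Fancf, Fanca, Fancd2, Mus81, Ercc1 and Nbn. The number of arrays limits the precision. Alternatives included other probe-set rules, scalings, filters, weights, covariates and leaving out each array.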

Additional observations from a re-analysis of the deposited data

How the results depend on the processing

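The counts of repair genes changed by TNF in the mutant and differing by genotype without or with TNF stayed at 0 under 22 alternatives; those differing by genotype on average and in TNF response stayed at 0 under the 21 that could be run for them, since a fit of only the groups compared gives neither. The count for TNF in wild type went from 0 to 1 with the mean of probe sets (Atr, 0.74) and with array weights (Rad51c, 0.47), and ranged from 0 to 1 when each array was left out, with 1 (Rad51c) without the second wild-type TNF array. The count averaged over genotype went from 0 to 3 with the mean of probe sets (Fancf -0.34, Mus81 -0.25, Atr 0.62) and to 1 with a filter on dim genes (Atr, adjusted p = 0.0496), array weights (Atr, 0.29) and Xist and Eif2s3y covariates (Fance, -0.43). With the replicate block it was 1 (Atr, 0.28, adjusted p = 0.0355); the block changed no other count. Leaving out each array gave 0 to 1: Atr (0.34) without the first untreated wild-type array, Fancf (-0.47) without the second, and Mus81 (-0.35) without the third wild-type TNF array. The cause of these moves was not tested. Of 302 values of the 14 named differences, 295 kept their side of the threshold, 7 passed it and 0 changed direction. The sex-linked covariates were used since Xist or Eif2s3y differed within the untreated wild-type, untreated mutant and wild-type TNF groups. Bard1 and Rad51c read near the median gene value, lower than the other members, and whether their signal limits their tests was not tested. The 3 arrays a group limit differences under about the widths of the intervals given.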
